A study of Mus musculus with 96 samples.

Results

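The mature microRNAs miR-199 and miR-214 were followed in 4 cell types isolated from the mouse heart over 6 time points after acute myocardial infarction. The members were chosen by name: mmu-miR-199a-3p, mmu-miR-199b-3p, mmu-miR-199a-5p, mmu-miR-199b-5p, mmu-miR-214-3p and mmu-miR-214-5p, which are 6 of the 1978 mature sequence names listed. miR-199a-3p and miR-199b-3p are the same molecule in sequence and held the same count in 96 of 96 libraries, so the 6 names give 5 distinct series of values, and the shared one is called miR-199a-3p from here on.

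Small RNA-seq was performed on fibroblasts (FBs), cardiomyocytes (CMs), hematopoietic cells (HCs) and endothelial cells (ECs) from male C57Bl6/J mice that were 12 to 14 weeks old. All mice after D0 had a permanent ligation of the left anterior descending coronary artery with no other treatment or allele, and D0 mice were not operated. Hearts were taken at D0, D1, D3, D7, D14 and D28, with 4 libraries per cell type and day. Each library held RNA pooled from 3 mice, or 2 where 1 was missing, so a p-value here measures the spread between pools. CMs were enriched by centrifugation, HCs with CD45 beads and ECs with CD144 beads, and FBs were the remaining cells that attached to an uncoated dish, most of them positive for DDR2, a collagen receptor. RNA input and PCR cycles were set per cell type and were alike only for FBs and HCs, so those settings and cell type cannot be told apart.

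miR-199a-2 and miR-214 are cut from one long noncoding host transcript, Dnm3os, which is transcribed from the strand opposite to the dynamin gene Dnm3 and is known from mesenchymal cells such as fibroblasts. Each hairpin yields a strand from its 5′ arm (5p) and one from its 3′ arm (3p), and the seed of each, bases 2 to 8, sets most of its target choice, so the arms of one hairpin address different transcripts. In the heart, miR-199a-3p is known for promoting cardiomyocyte proliferation when it is supplied from outside, miR-214 for limiting calcium overload in injured cardiomyocytes, and both families have been linked to fibrosis.

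The mature sequences are shown because the arms and family members can only be counted apart where their letters differ. Of the 6 names, 5 were matched in the RefSeq annotation of GRCm38.p6 (miR-199b-5p was not matched). They are written 5′ to 3′ with the seed in capitals, and miR-761 is added as the other mature sequence found in a search of that annotation with the seed of miR-214-3p.
mmu-miR-199a-3p: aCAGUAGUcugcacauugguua
mmu-miR-199b-3p: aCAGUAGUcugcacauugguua
mmu-miR-199a-5p: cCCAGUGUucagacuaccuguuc
mmu-miR-214-3p: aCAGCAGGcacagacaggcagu
mmu-miR-214-5p: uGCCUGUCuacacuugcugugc
mmu-miR-761: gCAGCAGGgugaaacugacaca

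The matched 5p and 3p strands thus carry 4 different seeds. Among the names searched, none outside the members shared a seed with miR-199a-3p, miR-199a-5p or miR-214-5p. The search left out a chromosome of the annotation, and the seed of the unmatched miR-199b-5p was not searched. Among those names the seed of miR-214-3p was in practice its own in these hearts, since miR-761 had 0 counts in all 96 libraries.

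The sequences come from 4 hairpin loci in GRCm38. Mir199a-2 (chr1:162217814-162217923, plus strand) and Mir214 (chr1:162223368-162223477, plus strand) lie 5444 bases apart, each within an exon of 2 annotated transcripts of Dnm3os (chr1:162217623-162225550, plus strand) and in no exon of Dnm3 (chr1:161982453-162478034, minus strand). Mir199b (chr2:32318460-32318569, plus strand) lies opposite to an intron of Dnm1 (chr2:32308471-32353338, minus strand). Mir199a-1 (chr9:21496495-21496564, minus strand) lies opposite to an intron of Dnm2 (chr9:21424908-21507759, plus strand). miR-199a-3p can therefore come from 3 loci and the miR-214 arms from 1.

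Mature counts per library ranged from 2217588 to 65588543 in FBs, from 3327351 to 24279105 in CMs, from 525651 to 29037628 in ECs and from 18286 to 29504666 in HCs. The lowest total belonged to HC D0 replicate 3, in which the 5 distinct members had 62 counts of miR-199a-3p, 16 of miR-199a-5p, 11 of miR-199b-5p and 0 of both miR-214 arms. A count of 0 in that library allows up to 164 CPM (counts scaled to a library total of 1000000 mature counts). It therefore says nothing about miR-214. The main results of the members on HC D0 are given with and without that library. The study removed 1 library each from EC D28, FB D0 and HC D0, and within these groups EC D28 replicate 3, FB D0 replicate 2 and HC D0 replicate 3 had the largest mean distance to their replicates over all miRNAs; in EC D28 the margin was small (1.90 against 1.67 to 1.71), and other groups were not compared in this way. Cell type markers were highest in their own isolates: the cardiomyocyte miR-1a-3p averaged 505167 CPM in CMs and 2490 CPM in FBs, the endothelial miR-126a-3p 192936 CPM in ECs and 26927 CPM in FBs, and the myeloid miR-223-3p 1794 CPM in HCs and 1.11 CPM in FBs. FBs thus held few CM and HC markers, while miR-126a-3p was present in them.

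miR-199 was among the most abundant miRNAs of FBs. Over the 24 FB libraries miR-199a-3p ranged from 30442 to 63338 CPM with a median of 46036 CPM, and its mean placed it at rank 6 of the 1336 sequences with counts. miR-199a-5p (rank 21) had a median of 16996 CPM and miR-199b-5p (rank 24) one of 14228 CPM. Both strands of miR-199 were therefore abundant. miR-214 was counted far less often, with a median of 524 CPM for miR-214-3p (rank 82) and 283 CPM for miR-214-5p (rank 109). The 5 distinct members together made up 6.64% ± 1.36 (SD, n = 4) of mature counts in FBs at D0 and 9.36% ± 1.56 (n = 4) at D3.

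**Figure D1:**
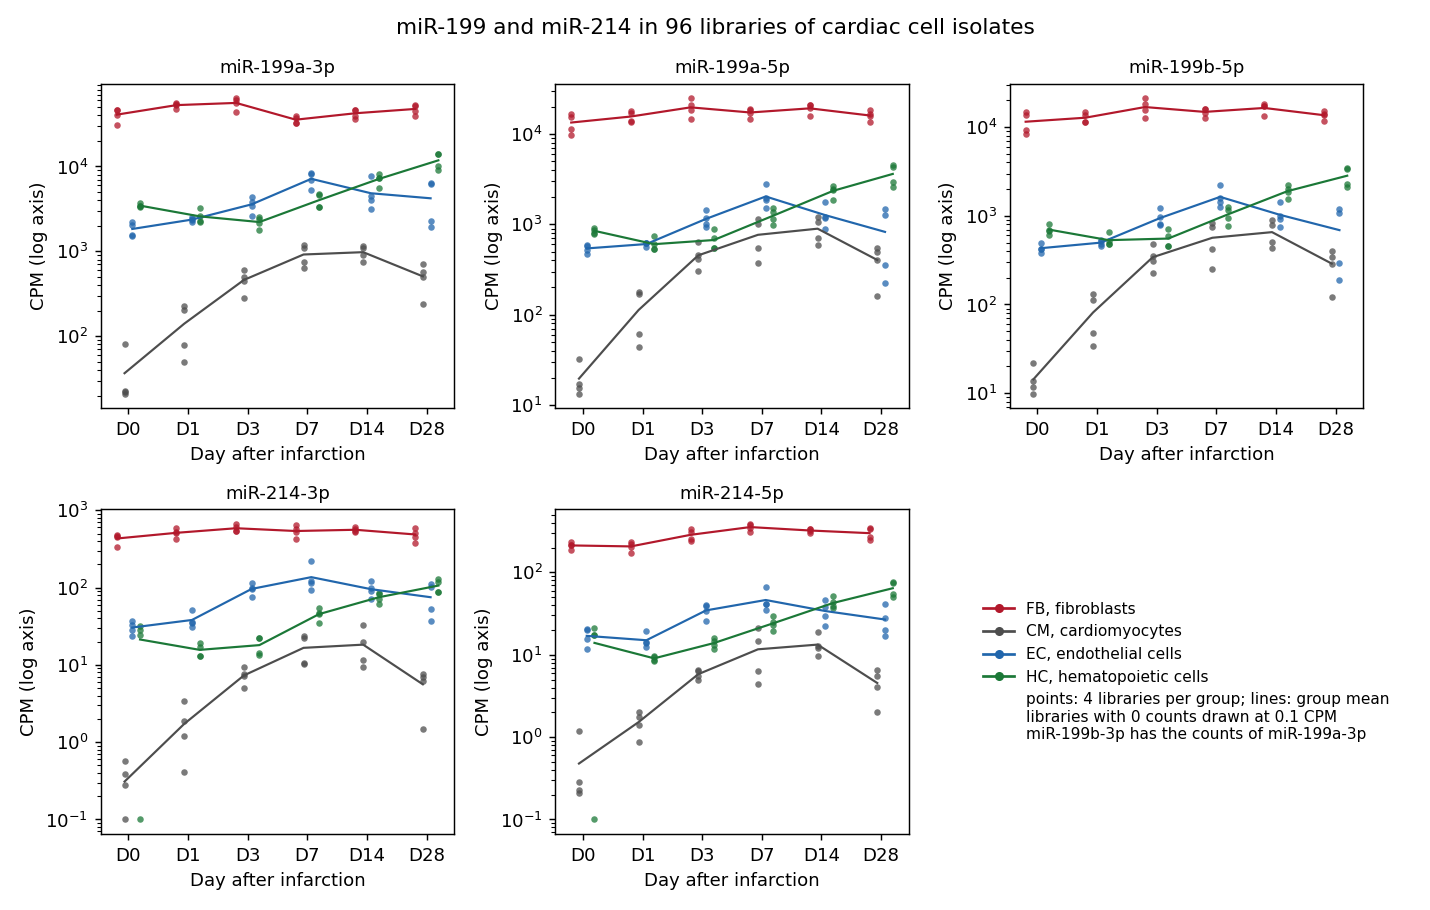
Level of the 5 distinct members in CPM on a log axis (vertical) against days after infarction (horizontal, 6 equally spaced time points) in the 4 isolates, with points for single libraries and lines through the means of 4 libraries. Libraries with 0 counts are drawn at a fixed floor below all other points, which is not a measured level. FBs lie above every other library for each member, and CMs start lowest.

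The members were highest in FBs. This does not test their label as fibroblast miRNAs, since they were chosen with earlier results of these data known. For miR-199a-3p the lowest FB library, at 30442 CPM, was 2.17-fold above the highest library of any other cell type, HC D28 replicate 1 with 14056 CPM. For miR-199a-5p this factor was 2.17 and for miR-199b-5p it was 2.39. The closest approach was that of miR-214-3p, with 337 CPM in FB D0 replicate 2 against 218 CPM in EC D7 replicate 2. For miR-214-5p the lowest FB library had 170 CPM and the highest other library 77.4 CPM, so that FBs and the remaining 72 libraries did not overlap for any of the 5. The share of all miRNAs that separate in this way is not given here, so how unusual this is remains unknown.

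Averaged over the 6 days, miR-199a-3p was higher in FBs than in CMs by 5.59 on the log2 scale (SE 0.15), than in ECs by 3.49 (SE 0.13) and than in HCs by 4.00 (SE 0.13). miR-214-3p was higher by 5.36 (SE 0.15) against CMs, 2.77 (SE 0.13) against ECs and 4.37 (SE 0.14) against HCs. With a call at an adjusted p under 0.05 in edgeR's quasi-likelihood test and a log2 difference of at least 1, 15 of 15 comparisons of a member were called higher in FBs. Over all 712 miRNAs tested, 33.3% were called higher in FBs than in CMs, 25.8% than in ECs and 28.5% than in HCs. In bulk isolates like these, fewer cells that express a miRNA and less of it per cell cannot be told apart.

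Below FBs the order of cell types changed with the day. At D0 miR-199a-3p followed the order FBs, HCs, ECs, CMs, with means of 40770, 3455, 1835 and 36.7 CPM and no overlap between neighbours. At D3 and D7 ECs stood above HCs, and at D28 HCs stood above ECs again with 11804 ± 2515 against 4216 ± 2434 CPM (n = 4 each). At D1 and D14 the libraries of HCs and ECs overlapped for miR-199a-3p. Over the 5 distinct members and 6 days, 22 of 90 neighbouring pairs in the order overlapped, none of them a pair that included FBs. The matching share over all miRNAs is not given here.

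In FBs the levels of miR-199 and miR-214 stayed within narrow bounds over the 6 time points. Highest and lowest day means differed by a factor of 1.58 for miR-199a-3p, 1.47 for miR-199a-5p, 1.46 for miR-199b-5p, 1.36 for miR-214-3p and 1.72 for miR-214-5p. Of 25 comparisons of a member and a day with D0, 5 were called by edgeR at an adjusted p under 0.05, 4 higher and 1 lower. The share called in either direction over all miRNAs of FBs came to 7.99% on D1, 43% on D3, 45.6% on D7, 24.7% on D14 and 6.75% on D28.

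miR-199a-3p was lowest at D7. The 4 libraries had 40565, 30442, 45807 and 46265 CPM at D0, 63338, 56404, 60008 and 44356 CPM at D3, 32186, 39709, 37538 and 32818 CPM at D7, and 52239, 39268, 53430 and 45362 CPM at D28. The D7 libraries all lay below those of D3, but overlapped with D0 through its replicate 2 and with D28 through its replicate 2. From D0 to D7 miR-199a-3p fell by 0.42 on the log2 scale (SE 0.14, adjusted p = 0.0154 in edgeR). This call was lost when library size alone was used for scaling (-0.20, adjusted p = 0.254), without the filter on low counts (adjusted p = 0.214), with identical rows counted once (0.0627) and with the 2 days fitted alone (0.0520). It was also lost without FB D0 replicate 3 (adjusted p = 0.0721) or without any of FB D28 replicates 2, 3 and 4 (0.0540 to 0.0613).

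The later steps were larger. From D3 to D7 miR-199a-3p fell by 0.55 on the log2 scale (SE 0.14, adjusted p = 0.00365, edgeR), where 29.3% of all miRNAs were called. From D7 to D28 it rose by 0.77 (SE 0.14, adjusted p = 0.000119, edgeR), where 40.3% were called. Scaled by library size, the step from D7 to D28 was 0.42 (adjusted p = 0.0150). Neither step was called for any of the other 4 members.

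miR-214-5p moved the other way at D7. It had 213, 188, 231 and 218 CPM at D0, 385, 381, 310 and 343 CPM at D7, 298, 337, 335 and 320 CPM at D14, and 338, 249, 268 and 343 CPM at D28. All 12 of these later libraries lay above all 4 of D0. Those of D3 did so too, with a lowest value of 239 CPM against a highest of 231 CPM at D0. D3 was nevertheless not called (log2 change 0.09, SE 0.16, adjusted p = 0.695, edgeR). The share of all miRNAs that separate in this way is not given here. On the log2 scale it rose by 0.52 at D7 (SE 0.16, adjusted p = 0.0121), by 0.57 at D14 (SE 0.16, adjusted p = 0.0126) and by 0.62 at D28 (SE 0.16, adjusted p = 0.0220). The D28 call was lost with scaling by library size (adjusted p = 0.0557), with the 2 days fitted alone (0.0522) and without FB D0 replicate 1, FB D0 replicate 2 or FB D28 replicate 1 (0.0569 to 0.0682).

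miR-199a-5p had 11404, 9867, 16894 and 15580 CPM at D0 and 15849, 19428, 20778 and 21124 CPM at D14, with 1 library of D14 inside the range of D0. It rose by 0.49 (SE 0.17, adjusted p = 0.0424, edgeR), a call lost with the replicate number as a block (adjusted p = 0.0606), without FB D0 replicate 1 (0.138) or without any of FB D14 replicates 2, 3 and 4 (0.0838 to 0.0917). The nearly parallel miR-199b-5p changed by 0.48 (SE 0.18), which missed the threshold at an adjusted p of 0.0523. miR-214-3p passed on no day, with its largest difference of 0.35 at D14 (SE 0.17, adjusted p = 0.131). Over all days together, 2 of 5 members varied in the FB time course, miR-199a-3p (adjusted p = 0.00101) and miR-214-5p (adjusted p = 0.000162), against 68.2% of all miRNAs.

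Scaling mattered in FBs. With library size alone, 9 of 25 comparisons were called, all of them higher, and 5 of these fell on D3, when the median of all miRNAs also stood 0.38 above D0 on that scale against 0.06 with TMM, the trimmed mean scaling used otherwise. The share of all miRNAs called on the library size scale is not given here. Of the markers of other cells in FBs, the 5 CM markers summed to 2058 to 4863 CPM at D0 and 1128 to 2365 CPM at D7. The 2 EC markers summed to 20888 to 30916 CPM at D0 and 21299 to 28277 CPM at D7, and the 2 mural markers, miR-143-3p and miR-145a-5p, to 24568 to 27493 CPM and 28108 to 35780 CPM. The 4 HC markers were lower in FBs at D7, with sums of 222 to 236 CPM at D0 and 99.6 to 158 CPM at D7, and 72.4 to 171 CPM at D28. In the TMM fit miR-150-5p fell by 1.13 at D7 (SE 0.25, adjusted p = 0.000655), miR-142a-5p fell by 1.25 (SE 0.43, adjusted p = 0.0200) and the CM marker miR-1a-3p fell by 1.27 (SE 0.39, adjusted p = 0.00993, edgeR). At D14 miR-142a-5p fell by 1.94 (SE 0.44, adjusted p = 0.00231) and miR-142a-3p by 1.29 (SE 0.47, adjusted p = 0.0458, edgeR). At D28 miR-150-5p fell by 0.97 (SE 0.25, adjusted p = 0.0172, edgeR). The remaining HC markers were not called on these days. The part of these cells in the changes was not tested.

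**Figure D2:**
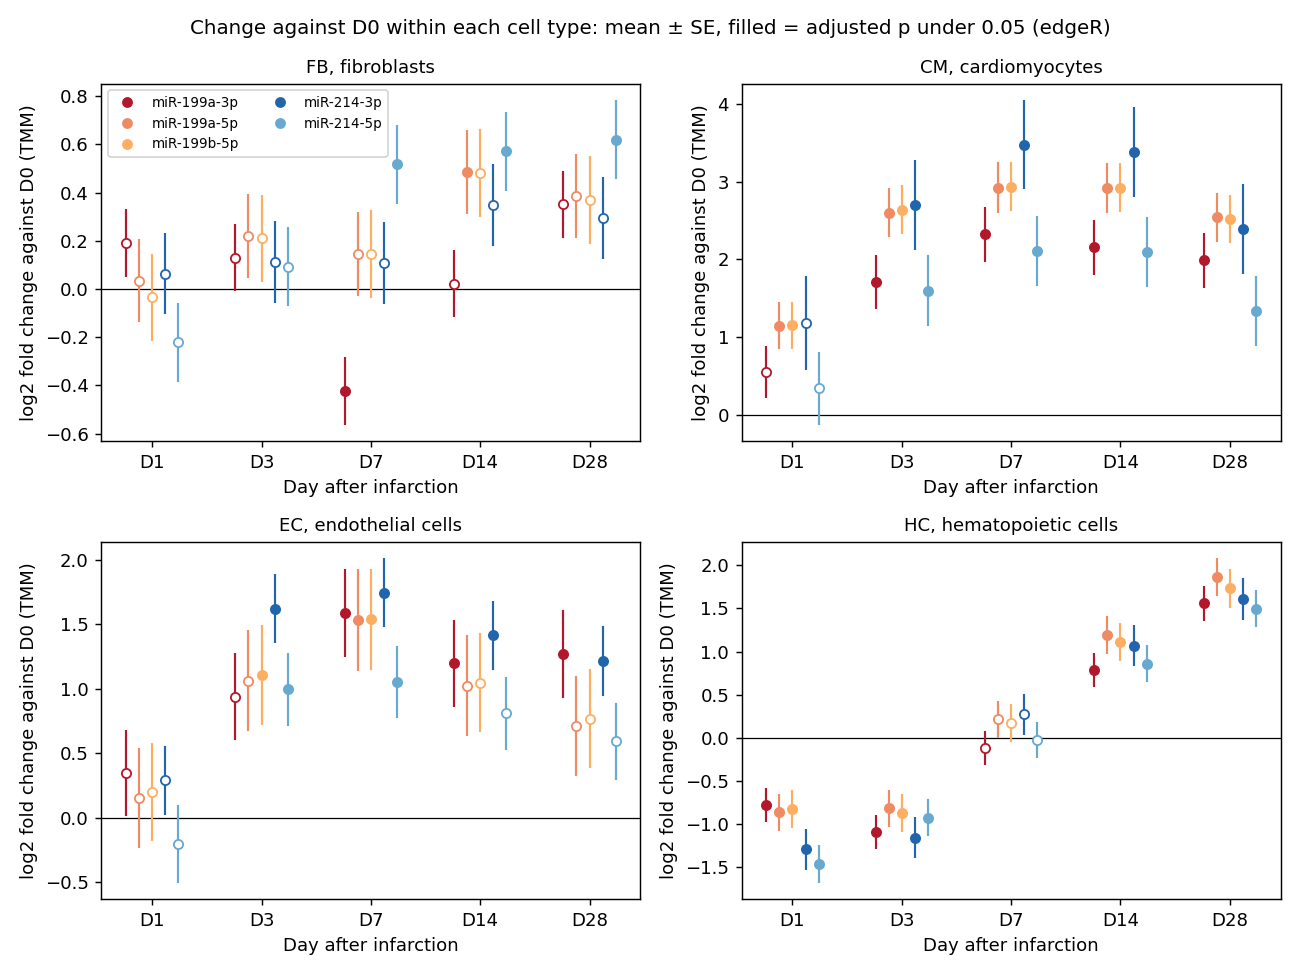
Change against D0 as a log2 fold change from edgeR (vertical, bars are ± 1 standard error) on each day after infarction (horizontal) for the 5 distinct members in each isolate, filled where the adjusted p was under 0.05. FB values stay between -0.42 and 0.62, while CM values reach 3.48 and HC values run from below 0 at D1 and D3 to above 1 at D28.

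Counts aligned to the hairpins were called at D28, a day on which miR-214-5p was the only member called among the mature counts. In FBs the hairpins mir-199a-1, mir-199a-2, mir-199b and mir-214 were called higher at D28, by 0.54, 0.54, 0.53 and 0.60 on the log2 scale (adjusted p from 0.0129 to 0.0152, edgeR), where 7.24% of hairpins were called higher. None of the 4 was called on another day. In CPM the libraries of D0 and D28 overlapped for each hairpin. For mir-199a-1 they had 32331 to 40479 CPM at D0 and 37702 to 50486 CPM at D28. For mir-214 they had 1550 to 1880 CPM and 1840 to 2503 CPM. The hairpin calls are given here on the TMM scale only. The counts of mir-199a-1 were 0.995 to 0.999 times those of mir-199a-2 over the 24 libraries and those of mir-199b 0.937 to 0.981 times, so these rows largely hold the same reads and are not separate evidence for the 3 loci.

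In CMs the members started from a low level and rose. miR-199a-3p had 80.8, 22.9, 22.0 and 21.03 CPM at D0, 642, 1186, 740 and 1104 CPM at D7, and 237, 500, 579 and 713 CPM at D28. Every D7 and D28 library lay above every D0 library. miR-214-3p was represented by 6, 4, 0 and 5 counts in the 4 libraries of D0 and reached 18.3 ± 10.48 CPM (n = 4) at D14. In the library with 0 counts, CM D0 replicate 3, the count allows up to 0.187 CPM.

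Of the 25 comparisons in CMs, 22 were called, all higher: miR-199a-5p and miR-199b-5p at D1 and all 5 distinct members on each later day. The shares of all miRNAs called higher were 13.6% on D1, 31.8% on D3, 38.8% on D7, 38% on D14 and 29.5% on D28. At D7 miR-199a-3p rose by 2.32 on the log2 scale (SE 0.35, adjusted p = 8.18e-06, edgeR) and miR-214-3p by 3.48 (SE 0.58, adjusted p = 1.97e-05, edgeR). Scaled by library size, miR-199a-3p rose by 4.65 at D7, but there the median of all miRNAs stood at 2.67, against 0.35 with TMM. The D28 call of miR-214-5p (1.34, adjusted p = 0.0156) was lost without any of CM D0 replicates 1, 2 and 4 (0.0804 to 0.110). With each pair of days fitted alone 19 comparisons were called, and the D1 calls of miR-199a-5p and miR-199b-5p (adjusted p = 0.0733 and 0.0592) and the D28 call of miR-214-5p (0.0884) were lost. The TMM factors of the CM D0 libraries, 0.289 to 0.357, were the lowest of a range up to 2.04.

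Markers of other cells took a larger share of the same CM libraries. The 2 EC markers summed to 4423 to 9789 CPM at D0 and 13060 to 22801 CPM at D7, and the 4 HC markers to 14.6 to 75.8 CPM at D0 and 161 to 298 CPM at D7, with no overlap in either. The 5 CM markers summed to 603384 to 709043 CPM at D0 and 393614 to 561650 CPM at D7. CM D0 replicate 1, the library with the highest miR-199a-3p at D0, also had the highest EC and HC marker sums of that day. The 2 mural markers did not follow, with 22682 to 36325 CPM at D0 and 16127 to 18085 CPM at D7. In the TMM fit, on which the changes above stand, 3 of the 4 HC markers rose at D7, miR-142a-3p by 2.73 (SE 0.46, adjusted p = 2.10e-05), miR-142a-5p by 3.54 (SE 0.57, adjusted p = 1.52e-05) and miR-223-3p by 3.67 (SE 0.75, adjusted p = 0.000180), while miR-150-5p had a change of 0.27 (adjusted p = 0.577, edgeR). The 2 EC markers moved apart: miR-126a-3p fell by 0.87 (SE 0.24, adjusted p = 0.00315) and miR-126a-5p rose by 1.51 (SE 0.44, adjusted p = 0.00411, edgeR). Of the CM markers, miR-1a-3p fell by 2.84 and the other 4 rose, by 0.81 to 3.18. The part of cells carried over in the CM changes was not tested.

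In ECs the members were highest at D7. miR-199a-3p had 2049, 1561, 2218 and 1514 CPM at D0 and 6910, 8123, 8332 and 5229 CPM at D7, without overlap. It rose by 1.59 on the log2 scale (SE 0.34, adjusted p = 0.000700, edgeR). miR-214-3p had 23.8, 32.7, 36.8 and 28.5 CPM at D0 and 91.9, 218, 115 and 121 CPM at D7, again without overlap, and rose by 1.75 (SE 0.27, adjusted p = 8.40e-06). In all, 12 of 25 comparisons were called, all higher: 0 on D1, 3 on D3, 5 on D7, 2 on D14 and 2 on D28. Of all EC miRNAs, 15.4% were called higher on D3, 17.8% on D7, 11.4% on D14 and 26.8% on D28. On D1 edgeR called 0 of 421 EC miRNAs, 0% in either direction, the members included.

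Beside the rise at D7, the sums of other markers in ECs overlapped with those of D0. The HC markers summed to 2221 to 2597 CPM at D0 and 2275 to 3091 CPM at D7, the CM markers to 75958 to 134290 CPM and 39746 to 80554 CPM, and the mural markers to 48200 to 62913 CPM and 35038 to 52979 CPM. The HC sum in ECs was nearly all miR-150-5p, which averaged 2544 CPM in ECs and 2586 CPM in HCs over all days. The other 3 averaged 2.98 to 12.2 CPM in ECs, so the sum says little about them. In the TMM fit the HC marker miR-223-3p rose by 1.90 at D3 (SE 0.58, adjusted p = 0.0192) and by 1.69 at D7 (SE 0.58, adjusted p = 0.0315, edgeR), and the other 3 HC markers were not called on these days. The CM marker miR-208a-3p fell by 1.27 at D7 (SE 0.40, adjusted p = 0.0190, edgeR), and neither EC marker was called. The part of other cells in the EC rise was not tested.

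The EC libraries of D28 fell into unlike pairs. miR-199a-3p had 6426 and 6211 CPM in replicates 1 and 4, and 1936 and 2291 CPM in replicates 2 and 3. Replicate 2 lay within the D0 range and replicate 3 just above it. miR-199a-5p showed the same division, with 1261 and 1466 CPM against 222 and 354 CPM, the latter pair below all D0 libraries, while miR-214-3p did not, with 110, 37.2, 101 and 52.3 CPM in replicates 1 to 4. In the same libraries the EC markers summed to 224231 CPM in replicate 1, 103768 in replicate 2, 156470 in replicate 3 and 116455 in replicate 4, which does not follow that division. The mural markers do follow it, with 27617, 102093, 38044 and 22370 CPM in replicates 1 to 4, as does the sum of 15 mesenchymal miRNAs, with 45252, 144831, 61646 and 39936 CPM. Both were higher in replicates 2 and 3, in which miR-199 was lower. Their part in it was not tested. Leaving out EC D28 replicate 2 or EC D28 replicate 3 gave 19 calls of 25, and leaving out EC D0 replicate 2 gave 9. The D3 call of miR-199b-5p (1.11, SE 0.39, adjusted p = 0.0445) was lost with the replicate number as a block (0.0610), with identical rows counted once (0.0524), without any of the 4 D0 libraries (0.0532 to 0.109), without any of EC D3 replicates 1, 2 and 3 (0.0510 to 0.126), and without EC D1 replicate 2, EC D1 replicate 3 or EC D7 replicate 1 (0.0513 to 0.0589). The D14 call of miR-199a-3p (1.197, SE 0.34, adjusted p = 0.0151) was lost without EC D0 replicate 2, EC D0 replicate 4 or EC D14 replicate 3.

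In HCs the members fell early and rose late. miR-199a-3p had 3706, 3408, 3391 and 3316 CPM at D0, 1796, 2391, 2143 and 2525 CPM at D3, and 14056, 9166, 10144 and 13849 CPM at D28. These 3 days did not overlap. In edgeR it fell by 1.09 on the log2 scale at D3 (SE 0.20, adjusted p = 3.88e-05) and rose by 1.56 at D28 (SE 0.20, adjusted p = 8.71e-07). Without HC D0 replicate 3 these values were -1.19 and 1.43. miR-214-3p had 24.7, 28.7 and 31.9 CPM at D0 in the libraries other than replicate 3, and 130, 86.7, 88.7 and 120 CPM at D28. Its D28 libraries all lay above those of D0, and it rose by 1.62 (SE 0.24, adjusted p = 8.99e-06, edgeR), or by 1.56 without replicate 3.

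All 5 distinct members were called lower at D1 and at D3, none at D7, and all 5 higher at D14 and at D28, which makes 20 of 25 comparisons. The count was also 20 without HC D0 replicate 3. Over all HC miRNAs, 28.9% were called lower on D1 and 28.1% on D3, 49.5% in either direction on D7, and 15.3% higher on D14 and 12.7% on D28. Scaled by library size, 13 comparisons were called higher and 6 lower in place of 10 and 10, with 4 lower at D1, 2 lower at D3 and 3 higher at D7. The late rises were thus called on both scales, whereas part of the early falls depended on the scale. With library size scaling the median of all HC miRNAs stood 0.34, 0.54 and 0.59 above D0 at D1, D3 and D7. The share of all miRNAs called on that scale is not given here. At D3 the calls of miR-199a-5p and miR-199b-5p were also lost without HC D3 replicate 1 (adjusted p = 0.0830 and 0.0588).

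Beside the early fall, markers of other cells were also lower in HCs. The CM markers summed to 85777 to 132342 CPM at D0 and 38494 to 64737 CPM at D3, the EC markers to 54905 to 91837 CPM and 14781 to 21541 CPM, and the mural markers to 21694 to 32350 CPM and 4768 to 7316 CPM. The HC markers summed to 6819 to 10015 CPM at D0 and 14671 to 25044 CPM at D3. At D28, when the members were highest, the CM, EC and mural markers were still below D0, with sums of 26274 to 42691, 19379 to 23996 and 7132 to 9464 CPM, and the HC markers were at 8248 to 12121 CPM. The part of other cells in the early fall was not tested. At D28 the members and the markers of CMs, ECs and mural cells stood on opposite sides of D0 on the CPM scale, and in the TMM fit miR-126a-3p fell by 1.96 (SE 0.25, adjusted p = 7.65e-07, edgeR).

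Set against FBs on the same day, the trace in the other isolates grew over time. The median of the 5 distinct members in CMs was 0.124% of the FB level at D0, 3.97% at D14 and 1.52% at D28. In ECs it was 4.50% at D0 (range of the members 3.75% to 7.98%), 13.02% at D7 and 8.86% at D28. HCs started from 6.31% (6.58% without replicate 3), dropped to 3.39% by D3 and reached 21.8% on D28, when the single members lay between 20.8% and 24.8% of their FB levels. At that time the members of HCs thus stood in nearly the proportions they had in FBs.

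These shares are ratios of plain CPM, and their size depends on the scale. With effective library sizes (library totals times the TMM factors of all 96 libraries) the median share in CMs was 0.935% at D0, 6.04% at D14 and 3.50% at D28. In ECs it was 5.46% at D0, 13.6% at D7 and 8.89% at D28, and in HCs 4.58%, 2.10% and 14.2% at D0, D3 and D28. On both scales the share at D28 was above that of D0 in each of the 3 isolates, by a smaller factor in CMs with effective library sizes.

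A list of 15 other mesenchymal miRNAs, among them the miR-143/145 pair of smooth muscle and several miRNAs of the imprinted Dlk1-Dio3 cluster, was compared in the same way. Their median share of the FB level in HCs was 40.7% at D0, 15.9% at D3, 39.4% at D14 and 35.0% at D28. In ECs it was 58.6% at D0 and 29.9% at D28, and in CMs 4.82% and 6.20%. In HCs single miRNAs of the list went both ways from D0 to D28. Shares rose for miR-127-3p (5.92% to 15.3%), miR-379-5p (5.47% to 11.7%), miR-411-5p (7.80% to 15.9%), miR-434-3p (4.87% to 19.1%) and miR-541-5p (4.01% to 14.0%). They also rose for miR-455-5p and, slightly, for miR-152-3p. They fell for both arms of miR-143, miR-145a and miR-140, for miR-10b-5p and for miR-455-3p. By the mean over days, 8 of the 15 were highest in FBs, against 5 of 5 distinct members. The miRNAs whose HC shares rose were all among the 8, as was miR-455-3p. Those whose HC shares fell were each higher in another isolate than in FBs. The list and the members were chosen with earlier results of these data known, so these counts do not test either choice.

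**Figure D3:**
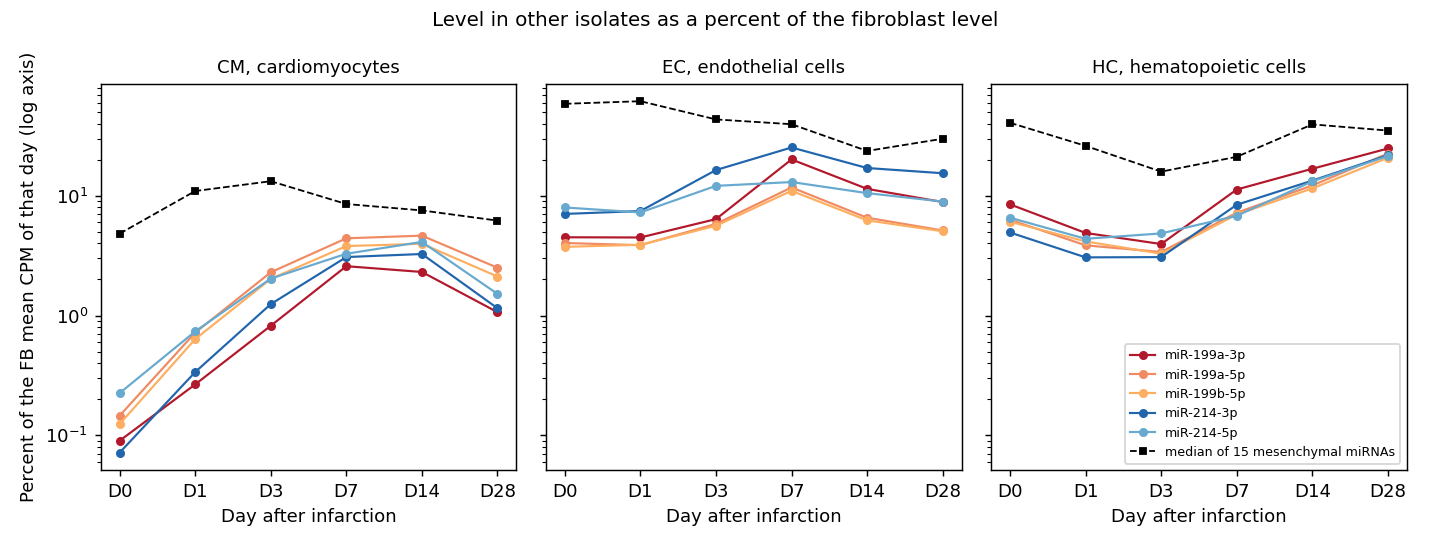
Level in CMs, ECs and HCs as a percent of the mean FB level of the same day (vertical, log axis) against days after infarction (horizontal), for each of the 5 distinct members and for the median of the 15 mesenchymal miRNAs. In HCs the members rise to 20.8% to 24.8% at D28, while the median of the list returns to 35.0%. Single miRNAs of the list lie above or below their D0 share at D28.

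Whether a change in FBs differed from the change in another isolate was tested directly, for 75 differences that share the FB and D0 libraries. Against CMs, the FB change was lower for 2 of 5 members on D1, 5 on D3, 5 on D7, 5 on D14 and 4 on D28, where 5.9%, 20.4%, 27.7%, 26.5% and 19.1% of all miRNAs were called lower. Against ECs it was lower for 4 of 5 at D7 (7.3% of all miRNAs) and called for none on the other days. For miR-199a-3p the D7 difference from ECs was -1.94 (SE 0.42, adjusted p = 0.000328, edgeR).

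Against HCs the FB change was higher for 3 of 5 members at D1 and 5 at D3, where 12.9% and 18.8% of all miRNAs were called higher, and lower for 4 of 5 at D28, where 2.11% were. With scaling by library size none of the D1 and D3 differences from HCs was called. At D28 the difference was -1.36 for miR-199a-3p (SE 0.41, adjusted p = 0.0380) and -1.62 for miR-199a-5p (SE 0.44, adjusted p = 0.0187, edgeR). miR-214-5p missed the threshold there (-0.99, SE 0.37, adjusted p = 0.0964). Without HC D0 replicate 3 and the other 2 libraries farthest from their groups, the D28 difference of miR-199a-3p also missed it (-1.32, adjusted p = 0.0726), and 3 of 5 remained.

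The balance of the arms needs no scaling between libraries, since both strands are counted in one library. In FBs the log2 ratio of miR-199 5p (miR-199a-5p plus miR-199b-5p) to 3p was -0.98, -0.74, -0.52 and -0.66 at D0 and 0.11, -0.19, -0.45 and -0.05 at D7. All 4 libraries of D7 lay above those of D0. The level of this ratio rests on how reads matching both 5p names were counted, since a read counted under each name enters the sum more than once. With miR-199a-5p alone as 5p, an alternative chosen after seeing the data, the 4 values were -1.83, -1.63, -1.44 and -1.57 at D0 and -0.79, -1.08, -1.34 and -0.93 at D7, and the rise of 0.58 was called as well (adjusted p = 0.00936, limma). The ratio rose by 0.58 (SE 0.15, adjusted p = 0.0106, limma), and that of miR-214 by 0.42 (SE 0.14, adjusted p = 0.0304, limma), where 21.9% of the 146 arm pairs were called. Over all days both varied in FBs (adjusted p = 0.00145 and 0.00254), as did 49.3% of pairs.

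At D14 the miR-199 ratio of FBs differed from D0 by 0.48 (SE 0.15, adjusted p = 0.0672), which missed the threshold, and at D28 by 0.05 (SE 0.15). In ECs it fell by 0.78 at D28 (SE 0.23, adjusted p = 0.00890, limma), where 36.9% of pairs were called. Over all days the miR-199 ratio of ECs varied at an adjusted p of 0.0344, where 39.8% of pairs were called, and this became 0.0796 without EC D28 replicate 3. In HCs the value over all days was 0.0929, where 15.9% of pairs were called, and 0.0313 without HC D0 replicate 3. In CMs the miR-199 ratio was higher at D3 by 0.72 (SE 0.27, adjusted p = 0.0260, limma), where 68.4% of pairs were called, and over all days it was not called (adjusted p = 0.239). For miR-214 no day was called in CMs, ECs or HCs. The CM D0 libraries had at most 19 counts on either miR-214 arm.

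**Figure D4:**
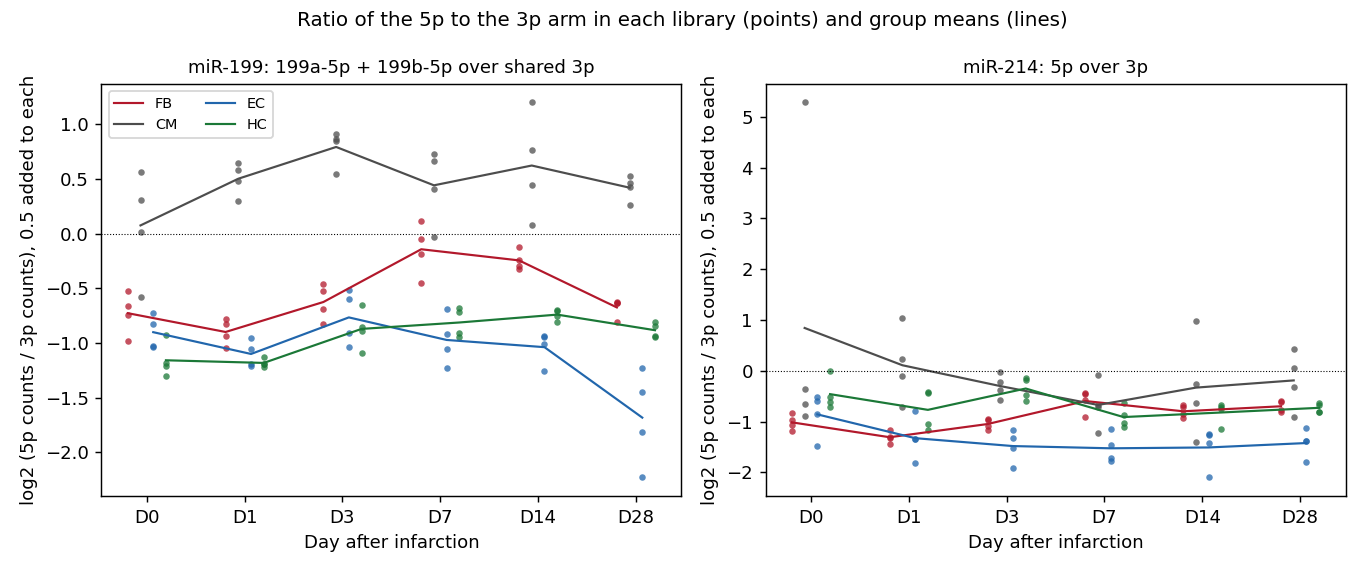
Log2 ratio of 5p to 3p counts with 0.5 added (vertical) of miR-199 and of miR-214 against days after infarction (horizontal) in the 4 isolates, with points for libraries and lines through the means of 4 libraries. The miR-199 ratio of FBs rises from a mean of -0.73 at D0 to -0.14 at D7, and CMs lie above the other isolates for miR-199.

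Between isolates the arm balance differed for miR-199. Over the 24 libraries of each, the 5p to 3p ratio averaged 0.682 in FBs, 1.39 in CMs, 0.474 in ECs and 0.521 in HCs as a geometric mean. On the log2 scale FBs were lower than CMs by 1.03 (SE 0.08, adjusted p = 3.13e-20), higher than ECs by 0.52 (SE 0.08, adjusted p = 1.35e-08) and higher than HCs by 0.39 (SE 0.08, adjusted p = 2.13e-05, limma). With miR-199a-5p alone as 5p the ratios were 0.369, 0.802, 0.261 and 0.286, so the order of the strands in CMs turned with this choice, while FBs were still lower than CMs by 1.12 and higher than ECs by 0.50 and than HCs by 0.37, all called. For miR-214, FBs were lower than CMs by 0.82 (SE 0.21, adjusted p = 0.000322, limma), and the differences from ECs (0.44, SE 0.21, adjusted p = 0.0556) and HCs (-0.24, SE 0.21, adjusted p = 0.336) missed the threshold. With 1 library left out, FBs were lower than CMs by 0.57 to 0.92. CM D0 replicate 3, with 19 counts of 5p and 0 of 3p, had a log2 ratio of 5.29, against -0.89, -0.36 and -0.65 in the rest of its group. That library also enters the SE of the EC and HC differences. Of 144 pairs, 68.1% were called against CMs, 56.2% against ECs and 38.2% against HCs.

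The proportion of miR-214-3p to miR-199a-3p was highest in ECs and lowest in HCs. For 1 count of miR-199a-3p there were 0.0114 counts of miR-214-3p in FBs, 0.0127 in CMs, 0.0193 in ECs and 0.00868 in HCs (geometric means of 24 libraries). The near-identical 5p strands of miR-199a and miR-199b stood at 1.18 to 1 in FBs, with a log2 ratio between 0.18 and 0.38 over the 24 libraries, and at 1.36, 1.22 and 1.21 to 1 in CMs, ECs and HCs. How reads that match both were assigned is not given in the sources used here, so their separate counts are uncertain. In 46 two-sided exact permutation tests of these 2 ratios (4 against 4 libraries, smallest possible p = 0.0286), 0 passed after adjustment, with a lowest adjusted p of 0.0821. In 16 of them the unadjusted p was the smallest possible. After adjustment over 46 tests, a test at that floor could pass only if many more had reached it. These tests therefore cannot show that the ratios were equal.

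Levels that ran parallel to miR-199 and miR-214 were looked up by correlation, as a description only. Over the 24 group means of log2 CPM, which share libraries, depth and the contrast between isolates, the 3 miRNAs most like miR-199a-3p among 354 were miR-455-3p (Pearson r = 0.981), miR-337-5p (0.968) and miR-34b-5p (0.956). For miR-214-3p they were miR-382-5p (0.975), miR-329-3p (0.973) and miR-455-3p (0.969). miR-455-3p averaged 52.2 CPM in FBs, 1.22 in CMs, 7.92 in ECs and 10.46 in HCs. Among the members themselves the correlation over these means was 0.934 to 0.999.

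Over the 6 FB days alone the members parted. miR-199a-3p had correlations of -0.24 to 0.22 with the other 4, whereas miR-199a-5p had 0.994 with miR-199b-5p and 0.990 with miR-214-3p. The 3 of 282 miRNAs most like miR-199a-3p over FB days were miR-3068-5p (0.986), miR-221-3p (0.962) and miR-130a-3p (0.955), and those most like miR-214-3p were miR-140-5p (0.894), miR-34a-5p (0.893) and miR-181c-3p (0.888). Each of these correlations rests on 6 points that share libraries and scaling.

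Other miRNAs linked to fibrosis changed in both directions in FBs. Of 18 such miRNAs, 4 were called higher and 7 lower at D3, and 5 higher and 10 lower at D7, with a median change of -0.61 at D7 against -0.07 for all miRNAs. Of all FB miRNAs, 22.9% were called higher and 20.1% lower at D3, and 24.5% higher and 21.1% lower at D7. miR-155-5p, which is induced in inflammation, rose by 2.87 on the log2 scale at D3 (SE 0.29, adjusted p = 7.01e-08, edgeR). miR-21a-5p, known for promoting fibroblast survival, rose by 1.87 at D3 (SE 0.25, adjusted p = 2.18e-06). miR-29a-3p, whose family targets collagen transcripts, fell by 1.53 at D7 (SE 0.29, adjusted p = 0.000136, edgeR).

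Of the 15 mesenchymal miRNAs, 7 were called higher and 4 lower at D7 in FBs, with a median of 0.37. miR-379-5p of the Dlk1-Dio3 cluster rose by 1.18 at D7 (SE 0.20, adjusted p = 5.09e-05, edgeR) and miR-140-3p by 1.56 at D14 (SE 0.24, adjusted p = 2.51e-05). miR-143-3p fell by 0.69 at D3 (SE 0.13, adjusted p = 9.02e-05). At D28 3 of the 18 and 2 of the 15 were called, all higher.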

How the data were processed

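The authors trimmed reads (Trim Galore), kept those of at least 18 nt, aligned them with an nf-core small RNA workflow (Bowtie2, SAMtools, mm10 in the submitters' processing notes, whose versions are not given in the sources used here) to miRBase 21 and deposited raw counts per mature sequence and per hairpin for each of the 96 libraries. Identical sequences each hold the full count (77 rows in 32 sets), so reads shared by names enter library totals more than once. CPM scales to a total of 1000000 mature counts. Unaligned reads, 25.6% to 83%, were left out.

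Members and lists were chosen with earlier results of these data known. Per cell type, 24 libraries were fitted with edgeR 4.0.16 (R 4.3.3; TMM, filterByExpr, quasi-likelihood test), each day against D0. All 96 were fitted for comparisons of cell types. P-values were adjusted by Benjamini-Hochberg over all miRNAs of a contrast, with a threshold of 0.05. Arm ratios (0.5 added, mean of at least 10 counts per arm) were tested with limma 3.58.1, and member ratios with exact permutation (scipy 1.17.1). Other miRNAs were named by correlation (3 per target, at least 10 CPM in a cell type) or from the lists. Limits for 0 counts use 3 counts and cover counting error only. Alternatives were library size scaling, DESeq2 1.42.0, no filter, other thresholds and pseudocounts, identical rows once, a replicate block and left-out libraries. The use of miR-199a-5p alone as the 5p strand was added after seeing the data. The fits were tested on simulated data.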

Additional observations from a re-analysis of the deposited data

Results flagged for a closer look

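Of 120 groups of 4 libraries (5 distinct members, 24 groups), 4 held a library separated from the others by a gap beyond Dixon's critical value for 4 values, and chance alone gives such a library in about 1 group of 20. In CMs at D0, miR-199a-3p was 80.8 CPM in replicate 1 against 22.9 CPM in the nearest library, and miR-214-5p was 1.18 CPM in replicate 3 against 0.286 CPM. The latter rests on 19 counts, in the library where miR-214-3p had 0. In ECs at D1, miR-199a-5p was 555 CPM in replicate 4 against 619 CPM in the nearest library. In HCs at D0, miR-214-5p was at 0 in replicate 3 against 17.4 CPM, in the library with 18286 mature counts.

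The change from D0 differed between FBs and another isolate, by a test of the difference itself in edgeR, in 9 comparisons. Against CMs it differed for 2 members on D1, 5 on D3, 5 on D7, 5 on D14 and 4 on D28. Of all miRNAs, 5.9%, 20.4%, 27.7%, 26.5% and 19.1% were called in the same direction on these days. Against ECs it differed for 4 at D7 (7.3% of all miRNAs). Against HCs it differed for 3 at D1, 5 at D3 and 4 at D28 (12.9%, 18.8% and 2.11% of all miRNAs in the same direction). With library size scaling the counts against HCs on these days were 0, 0 and 5, and without the farthest libraries 4, 5 and 3. These comparisons share the FB libraries and the D0 libraries.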

How the results depend on the processing

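Of 4259 values recomputed under the alternatives, 4035 kept their direction and side of the threshold (counts within 1.5 times), 110 became stronger, 60 weaker and 54 changed sign. These 4259 leave out counts and shares that moved beyond 1.5 times, such as the FB calls given next. With library size scaling the FB calls against D0 were 9 in place of 5. FB members varying over all days were 4 in place of 2 with library size scaling, without a filter and with identical rows counted once. Leaving out 1 library gave 3 to 6 FB calls, 2 to 4 over all FB days, 21 to 23 CM calls, 9 to 19 EC calls, 18 to 20 HC calls and 15 of 15 FB comparisons with other isolates. Adjusted p over days of the miR-199 arm ratio ranged from 0.00890 to 0.0943 in ECs (0.0796 without the farthest library) and from 0.0305 to 0.162 in HCs (0.0313). The miR-214 arm difference of FBs minus ECs was 0.37 with a pseudocount of 5, which passed, and 0.41 to 0.47 with 1 library left out. As a share of FBs scaled by effective library sizes, miR-199a-3p averaged 2.61% in CMs (1.19% otherwise) and 7.73% in HCs (11.7%). The cause of these shifts was not tested.

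Sign changes were all of values that were not called. For miR-199b-5p at FB D1 the alternatives gave 0.15, 0.055 and 0.0028, and DESeq2 gave 0.022 for miR-214-3p from FB D3 to D7. With library size scaling FB D28 against D7 was -0.11 for miR-199a-5p, -0.12 for miR-199b-5p, -0.15 for miR-214-3p and -0.25 for miR-214-5p. At HC D7 miR-199a-3p became 0.21 and 0.077, and miR-214-5p 0.39, 0.20 and 0.0018. For FBs minus ECs at D1 values without the farthest libraries were -0.072, -0.025, -0.14 and -0.099 and with library size scaling -0.057 and -0.074, and at D28 they were 0.14 and 0.069 (replicate block), -0.071 (library size) and -0.034 (without the farthest libraries). FBs minus HCs at D7 was 0.0092 with the block.

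Leave-one-out values crossed 0 for 10 results: at FB D1 miR-199a-5p (-0.052 to 0.19), miR-214-3p (-0.029 to 0.16) and miR-199b-5p (-0.16 to 0.15), at FB D14 miR-199a-3p (-0.025 to 0.13), from FB D3 to D7 miR-199a-5p (-0.18 to 0.052), miR-214-3p (-0.11 to 0.12) and miR-199b-5p (-0.17 to 0.058), at EC D28 miR-199a-5p (-0.00070 to 1.00), and at HC D7 miR-199a-3p (-0.22 to 0.071) and miR-214-5p (-0.18 to 0.16).

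Same-numbered libraries of different days did not deviate together (mean correlation -0.0027 in FBs, 0.031 in CMs, 0.030 in ECs and 0.0028 in HCs over 60 pairs each). With the replicate number as a block, calls were 4 in FBs, 22 in CMs, 11 in ECs and 20 in HCs. The study's methods say that the pools of a day came from the same animals, but not that equal numbers mark them. Over 144 pairs of libraries with the same number and day in different cell types the mean correlation was 0.063 (-0.020 for other numbers) and 62 pairs were over 0.1. Fits of all 96 libraries treat these as independent, and a block of day and number gave 35 of 75 differences called in place of 37. Depth limits miR-214 in CMs at D0 and in HC D0 replicate 3. How shared reads were assigned limits the split of miR-199a from miR-199b.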
